A study of Canis lupus familiaris with 26 samples.

Results

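The genes described here encode cytokines, chemokines, their receptors and a few related proteins in the canine corpus luteum (CL). They are the 59 genes, of 19856 counted, whose symbol begins with IL, CCL, CXCL, CCR, CXCR, CX3C, TNF or CSF on the study's lists of differentially expressed genes, leaving out IL1B, IL6 and IL10. Those lists hold 4888 gene identifiers, and genes of the same families that stand on neither list carry no symbol in the sources used here and were not analysed. Of the 59 genes, 49 stand on the list for time, which compared days 20 and 30 with days 5 and 10 in control dogs only, 41 as lower and 8 as higher on days 20 and 30. Another 23 stand on the list for treatment on day 20 (19 as higher and 4 as lower in treated dogs), 4 on that for day 30 (2 in each direction), and 0 on those for days 5 and 10. There are 17 genes on the time list and a treatment list, 32 on the time list alone and 10 on a treatment list alone. Measured values of the control dogs, of day 20 and of day 30 therefore chose the genes, so fold changes from those contrasts are given as a description, and tests are given only for contrasts that did not choose a gene. A gene on both kinds of list can still share samples with such a test, since the time list used all 13 controls and the day 20 and day 30 lists used the dogs of those days, so p-values are printed only where no list of the gene used samples of the test.

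CL were collected from 26 mixed-breed bitches of differing age, 1 library each, in 8 groups. From the day of ovulation, 13 dogs received 10 mg/kg of firocoxib, an inhibitor of PTGS2 (COX2), by mouth each day, and CL were removed by ovariohysterectomy on day 5 (4 dogs), 10 (3 dogs), 20 (3 dogs) or 30 (3 dogs) of treatment. The 13 control dogs (4, 3, 3 and 3) were operated on the same days after ovulation. They received a placebo per the treatment protocol and the study's methods, although the series' design text calls them untreated. Dogs differ between days, so no dog was followed over time. Days 5 and 10 are called early and days 20 and 30 mature below. Libraries held 12831896 to 22658950 reads on genes (median 17909941.5), of which the 59 genes took 0.0657% to 0.189% (median 0.121%). Levels are counts scaled to a common library size (CPM, with TMM factors) and are not per length, so they are compared between samples of a gene, not between genes. A count of 3 reads corresponds to 0.126 to 0.232 CPM, depending on the library. All 59 genes reached a mean of 10 reads in at least 1 of the 8 groups.

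Chemokines are small secreted proteins that direct leukocytes along their gradients. CC chemokines such as CCL2, CCL3, CCL4 and CCL5 act mainly on monocytes, T cells and eosinophils, and CXCL8 acts on neutrophils, each through G protein-coupled receptors named CCR or CXCR. Interleukins and colony stimulating factors signal through receptor chains that are in part shared, most of them coupled to JAK kinases and STAT factors. The IL1 and TNF families signal instead to NF-kappaB, and they induce brakes on their own action, such as the receptor antagonist IL1RN and the ubiquitin-editing enzyme TNFAIP3. In the CL, leukocytes and vascular cells accompany the steroidogenic luteal cells, and cytokines and prostaglandins take part in formation, maintenance and regression of the gland.

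The tissue label was checked against marker genes, of which only those on the study's lists have a symbol. Of 9 luteal markers 3 were found (LHCGR, PRLR and FDX1), and all 3 were present in all 26 samples. FDX1, the ferredoxin of steroidogenesis, had 38.5 CPM in treated replicate 3 of day 20, the lowest value of any sample, against 668 and 666 CPM in the other treated dogs of that day. The luteal markers did not all share a direction. On day 20, 1 of the 3 had a positive log2 fold change in treated against control dogs, with a median of -1.34. FDX1 alone therefore does not show the level of luteal tissue in a sample. The 5 oocyte markers (ZP2, ZP3, ZP4, BMP15 and GDF9, with most reads on BMP15) summed to 148, 258 and 200 CPM in the 3 treated dogs of day 20 and to 4.57, 9.14 and 6.63 CPM in the 3 controls, with BMP15 and ZP3 at 0 in controls 2 and 3. The treated dogs of day 20 also had 11900, 9820 and 13800 CPM of 6 stromal markers, led by COL1A2, against 2880, 7260 and 6560 CPM in controls. The step with time in treated dogs is given with and without these 3 libraries, whereas the comparison on day 20 and the step from day 20 to day 30 have no other treated samples of day 20. Oocyte markers were not limited to that group: their sum exceeded 90 CPM in control 1 of day 5, treated replicate 1 of day 5, controls 2 and 3 of day 10 and treated replicate 2 of day 30.

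**Figure D1:**
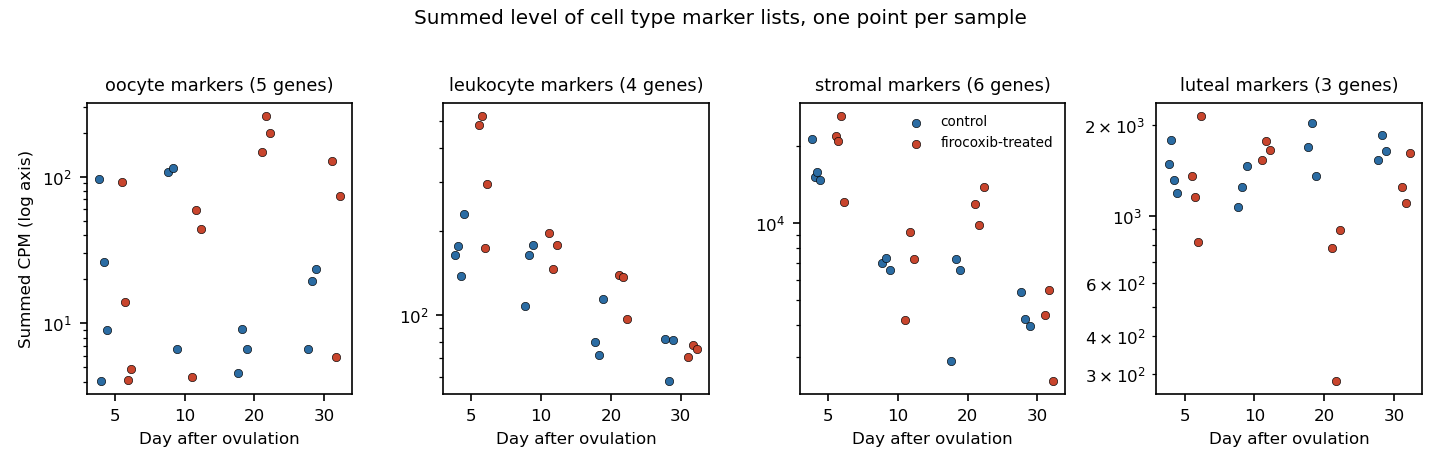
Summed CPM of 4 marker lists (log axis) against day after ovulation, 1 point per sample, blue for control and red for firocoxib-treated dogs. On day 20 all 3 treated samples lie above all 3 controls for oocyte and stromal markers and below them for luteal markers. The stromal sum is led by COL1A2 and the luteal sum by FDX1, and single members of both lists differ from the sum.

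Leukocyte markers moved with stage as well. The 4 of 5 general leukocyte markers found (CD53, CORO1A, LCP1 and LAPTM5, with most reads on LAPTM5) summed to 108 to 231 CPM in the 7 early controls and 58.1 to 114 CPM in the 6 mature controls, and all 4 were on the time list as lower. In treated dogs the sum was 146 to 518 CPM early, with 481 and 518 CPM in replicates 1 and 2 of day 5, and 70.6 to 139 CPM in the mature stage. Macrophage markers (3 found) and stromal markers (6 of 6) were lower with time in controls as well, with median log2 fold changes of -1.47 and -1.37. All of them passed both thresholds, where 20.5% of all genes did, and 3 of 5 endothelial markers (CDH5, KDR and EMCN) passed as higher. Only markers on the study's lists have a symbol, and the time list used these controls, so these calls are a description. In treated dogs 1 of 3, 0 of 6 and 0 of 5 passed, where 4.65% of all genes did, with medians of -1.26, -0.78 and -0.18. The 4 general leukocyte markers gave 2 calls in treated dogs, CORO1A and LAPTM5 as lower, with a median of -1.44. The part of these markers in the changes of the cytokine genes with time was not tested. In these bulk samples, fewer cells of a type and less RNA per cell cannot be told apart.

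**Figure D2:**
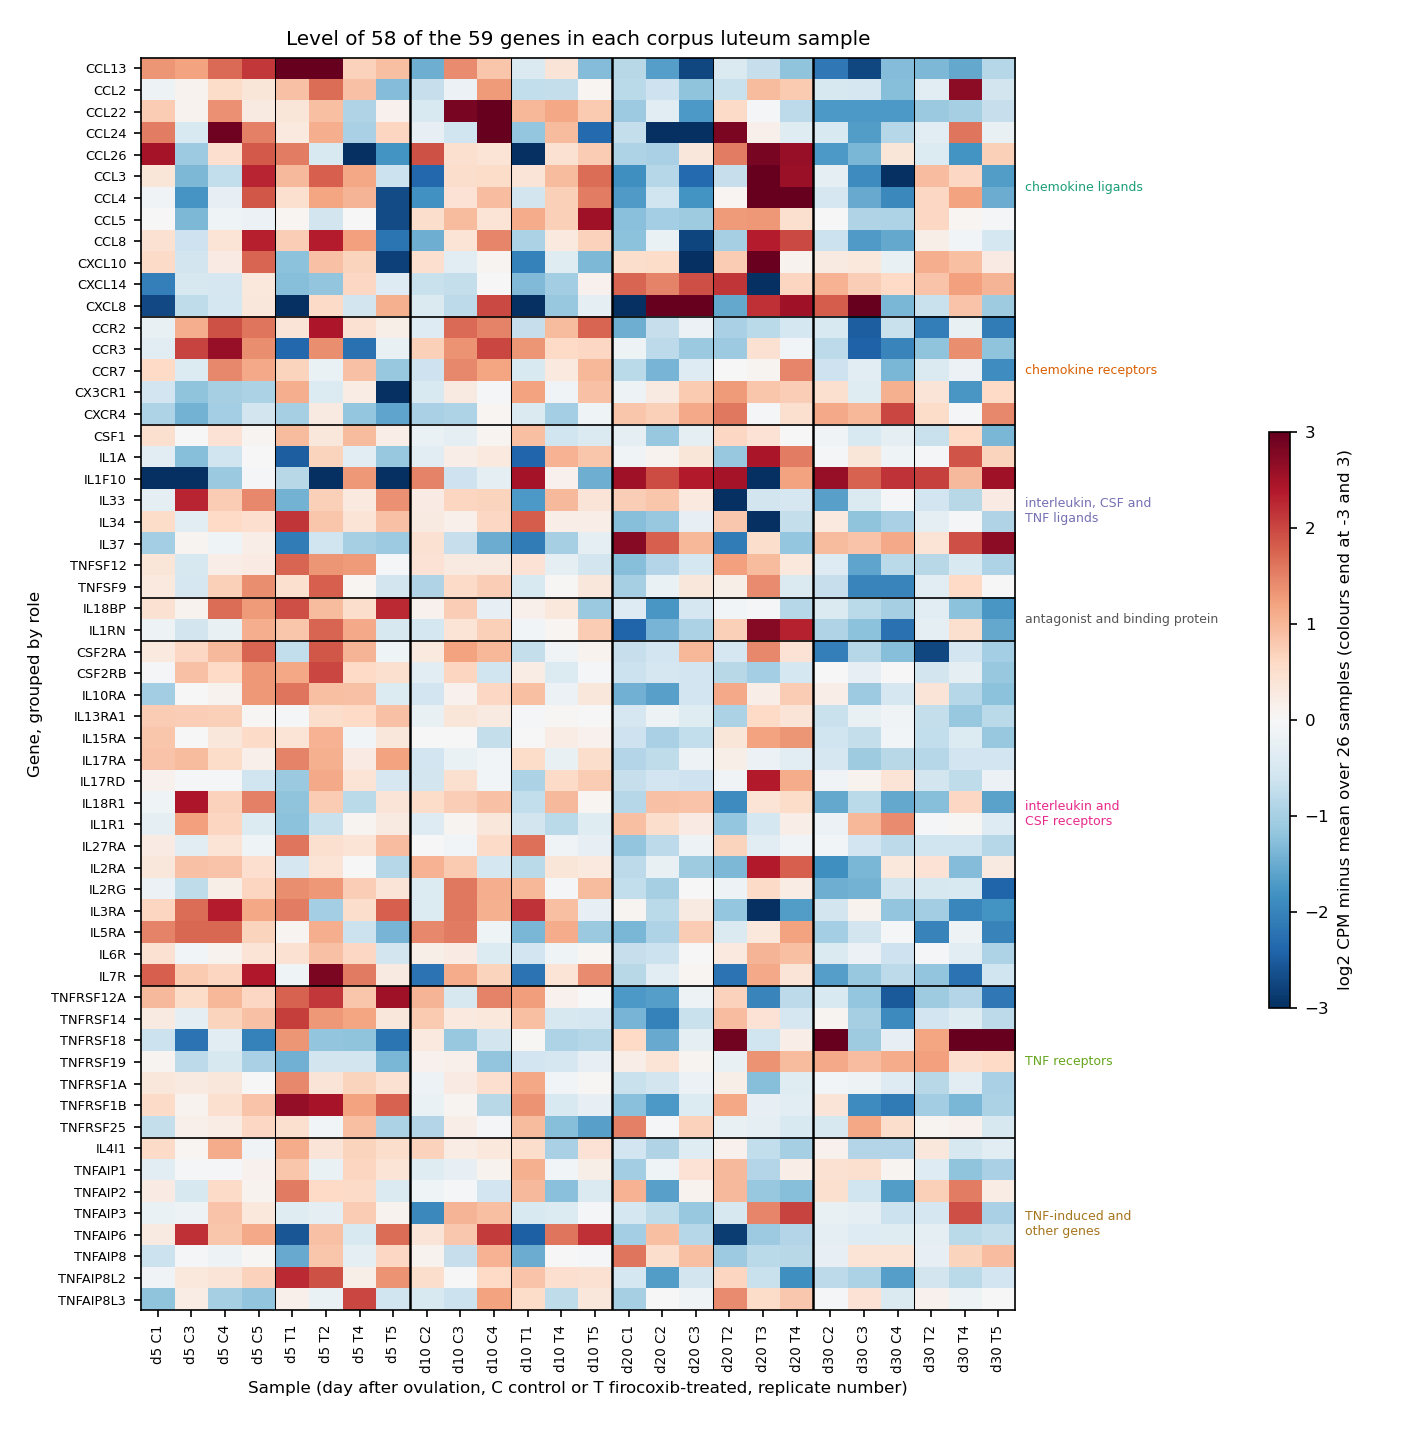
Level of each of 58 of the 59 genes (rows, grouped by role) in each of the 26 samples (columns, by day, then control and treated), as log2 CPM minus the gene's mean over all samples. Most rows are redder on days 5 and 10 than on days 20 and 30, and the chemokine ligands CCL3, CCL4 and CCL26 are reddest in treated replicates 3 and 4 of day 20.

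With time in control dogs, the contrast that chose 49 of the genes, 41 were lower and 8 higher on days 20 and 30, with log2 fold changes from -4.54 (CCL22) to 3.19 (CXCL8) and a median of -1.26. In the present fit 39 of them passed P under 0.01 with a false discovery rate (FDR) under 0.1, 7 higher and 32 lower, where 20.5% of the 13503 genes tested did, which is a description since these samples chose the genes. An unadjusted P under 0.05 was found for all 49, against 37.1% of all genes. The smallest change among these 49 genes was that of CSF1 (-0.52), the growth factor of macrophages, and that of IL6R (-0.57) was also among the smallest. Values of genes just outside the list were not analysed, for want of symbols.

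The chemokine ligands on the time list numbered 11, of which 9 were lower in mature controls. CCL22, a ligand of CCR4 on T cells, had 0.155 to 2.83 CPM (median 0.503) in early controls, and was at 0 in 4 of the 6 mature controls and at 0.0601 and 0.183 CPM in the others, which is 4 reads in all. CCL13 (ENSCAFG00000024205), a ligand of CCR2 and CCR3, had 0.155, 1.72 and 3.08 CPM as lowest, median and highest value early and 0, 0.0877 and 0.300 CPM later, with a log2 fold change of -3.89 ± 0.72 (SE). CCL24 (ENSCAFG00000013396), an eotaxin that attracts eosinophils through CCR3, had 5.66, 24.9 and 70.0 CPM early and 0.895, 3.68 and 6.27 CPM later. The other eotaxin, CCL26 (ENSCAFG00000032573), ranged from 1.56 to 19.7 CPM early and from 0.964 to 4.48 CPM later. Early and mature values of CCL13, CCL24 and CCL26 overlapped by a few samples.

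The 5 other ligands of monocytes and T cells were also lower with time in controls, and their early and mature values overlapped. CCL2 (ENSCAFG00000018349), the main attractant of monocytes, had 42.2, 73.7 and 166 CPM early and 27.9, 41.7 and 48.4 CPM later. CCL8 (ENSCAFG00000023928), a relative of CCL2, had medians of 13.7 and 3.88 CPM. CCL3 (ENSCAFG00000018167) and CCL4 (ENSCAFG00000018164), neighbouring genes for inflammatory chemokines, had medians of 3.69 and 5.36 CPM early and 0.705 and 1.81 CPM later. CCL5 (ENSCAFG00000018171) had medians of 2.47 and 1.2 CPM. How the counting treated reads shared by such similar chemokine genes is not given in the sources used here, so values of single CC ligands are uncertain to that extent.

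Both remaining chemokine ligands were higher in mature controls. CXCL14 (ENSCAFG00000001084), a chemokine of epithelia and stroma, had 2.39, 7.13 and 12.7 CPM early and 15.6, 25.0 and 39.1 CPM later, with no overlap. CXCL8 (ENSCAFG00000003029) had 6.45, 29.3 and 167 CPM early and varied most later, with 4.27, 947 and 1010 CPM in controls 1, 2 and 3 of day 20 and 151, 495 and 16.3 CPM in controls 2, 3 and 4 of day 30. Its log2 fold change of 3.19 ± 1.0 thus averages mature controls that lie below, within and far above the early range.

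All 6 chemokine receptors passed both thresholds in this contrast. CCR2, CCR3 and CCR7, receptors of monocytes, eosinophils and homing lymphocytes, were lower, with medians of 2.59, 2.32 and 2.64 CPM early and 0.493, 0.371 and 0.649 CPM later. CXCR4 (ENSCAFG00000005109), the CXCL12 receptor found on leukocytes and endothelial cells, was higher without overlap, from 16 to 44.7 CPM early to 69.6 to 171 CPM later. CX3CR1, the fractalkine receptor, was also higher, with medians of 6.03 and 11.7 CPM.

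Among the other ligands, the anti-inflammatory IL1 family members IL1F10 (IL38) and IL37 were higher in mature controls without overlap. IL1F10 had 0.222, 4.33 and 18.9 CPM early and 23.2, 33.1 and 41.9 CPM later, and IL37 had 0.0589 to 0.542 CPM early and 0.751 to 3.06 CPM later. IL34 and CSF1, which share the receptor CSF1R, and the TNF family ligands TNFSF12 (TWEAK) and TNFSF9 (4-1BB ligand) were lower, with log2 fold changes of -1.01, -0.52, -1.09 and -1.26. The IL1 receptor antagonist IL1RN (ENSCAFG00000007277) had 6.78, 9.01 and 21.4 CPM early and 1.80, 3.95 and 5.36 CPM later, and the IL18 binding protein IL18BP 3.30, 5.45 and 12.9 CPM against 1.1, 2.46 and 3.00 CPM. Neither overlapped between stages.

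All 14 interleukin and CSF receptor genes on the time list had a negative log2 fold change in controls (median -1.17, range -2.31 to -0.57), and 10 of them passed both thresholds. The largest were those of IL7R (-2.31), IL5RA (-2.04), IL3RA (-1.69) and CSF2RA (-1.43), chains for the T cell survival factor IL7, the eosinophil factor IL5, IL3 and GM-CSF. Of 6 TNF receptors 4 were lower, led by TNFRSF12A (the TWEAK receptor, -1.93) and TNFRSF14 (-1.46). TNFRSF19 (TROY) and TNFRSF18 (GITR) were higher, TNFRSF19 with 5.36 to 13.6 CPM early and 13 to 27.1 CPM later. TNFRSF18 was high in 1 mature control only, with 13.1 CPM in control 2 of day 30 and at most 2.22 CPM in the others, and its log2 fold change of 1.91 was 0.45 without that sample. The 4 remaining genes (TNFAIP3, TNFAIP6, TNFAIP8L2 and IL4I1), which are TNF-induced or name-related genes rather than cytokines, were lower by 0.95 to 1.53 on the log2 scale. Among them are brakes on inflammation, namely TNFAIP3, which dampens NF-kappaB signalling, and TNFAIP8L2, a negative regulator of immune receptors.

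The same step was then examined in the 13 treated dogs, whose samples the time list did not use. With edgeR's quasi-likelihood test and Benjamini-Hochberg adjustment over all genes, 47 of the 49 genes passed the filter on low counts and 11 passed both thresholds (23.4%), where 4.65% of the 13747 genes tested and 13.4% of the 3460 tested genes of the whole time list did. All 11 had the direction of the time list: 3 were higher and 8 lower in the mature stage, where 1.54% and 3.11% of all genes were. An unadjusted P under 0.05 was found for 21 of the 47 genes, against 19.6% of all genes. CCL22 and IL5RA fell below the filter in treated dogs. The 32 genes on the time list alone, none of whose lists used a treated sample, gave 9 of 30 tested as called, 2 higher and 7 lower, with 18 at an unadjusted P under 0.05. Of the 2626 genes of the whole time list that stand on no treatment list, 14.6% were called. The 17 genes that are also on a treatment list gave 2 calls (11.8%), TNFRSF19 and IL3RA, where 9.59% of the 834 such genes of the whole list were called. The count of 11 rested on few libraries. It was 1 without treated replicate 5 of day 30, 2 without replicate 4 and 3 without replicate 2 of that day, 3 without treated replicate 2, 5 without replicate 5 and 7 without replicate 1 of day 5, 4 without treated replicate 4 of day 20, and 17 without replicate 2 of day 20, and the share of all genes called moved with it, from 1.1% without replicate 5 of day 30 to 14.4% without replicate 2 of day 20. Without all 3 treated dogs of day 20, 14 genes passed, where 8.22% of all genes did, among them 8 of the 11 and not CCL13, CCR2 and CSF2RB.

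TNFRSF19 (ENSCAFG00000007136), an orphan-like member of the TNF receptor family, is also on the day 20 list. It had 4.42, 8.27 and 10.3 CPM as lowest, median and highest value in early treated dogs and 10.4, 21.1 and 31.3 CPM in mature ones, with no overlap. Its log2 fold change was 1.55 ± 0.30. With the day 20 dogs left out, so that no sample of its lists took part, it was 1.54 ± 0.33 (edgeR adjusted p = 0.0338). IL3RA (ENSCAFG00000011047), the specific chain of the IL3 receptor, went from 0.770, 3.27 and 8.0 CPM to 0, 0.431 and 0.758 CPM, also with no overlap and with a log2 fold change of -3.08 ± 0.71. It is on the day 20 list too, and without the day 20 dogs it fell by 2.89 ± 0.78 (edgeR adjusted p = 0.0688).

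The other TNF receptor genes called in treated dogs were TNFRSF18, TNFRSF12A and TNFRSF1A. TNFRSF18 (ENSCAFG00000019329), an activating receptor of T cells, had 0.228 to 3.78 CPM early, and 11.3, 0.915 and 1.67 CPM in treated replicates 2, 3 and 4 of day 20 and 3.38, 25.8 and 14.6 CPM in replicates 2, 4 and 5 of day 30. Its log2 fold change was 3.09 ± 0.78 (edgeR adjusted p = 0.0595), with the mature dogs spread over more than the early range. TNFRSF12A (ENSCAFG00000023134) went from 6.61, 15.7 and 38.9 CPM to 1.39, 3.31 and 10.6 CPM and fell by 2.22 ± 0.55 (edgeR adjusted p = 0.0539). TNFRSF1A (ENSCAFG00000015197), the main receptor of TNF, went from a median of 58.8 to 28.7 CPM and fell by 1.17 ± 0.32 (edgeR adjusted p = 0.0709). When each of the 13 samples was left out in turn, TNFRSF18 passed in 9 fits, TNFRSF12A in 7 and TNFRSF1A in 3, against 13 for TNFRSF19 and 11 for IL3RA.

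Among the chemokine system, CCL13, CCR2 and CXCR4 passed. CCL13 had 21.0, 27.0, 1.07 and 1.25 CPM in treated replicates 1, 2, 4 and 5 of day 5, 0.428, 0.833 and 0.186 CPM in replicates 1, 4 and 5 of day 10, and 0.141 to 0.430 CPM in the 6 mature dogs. It fell by 4.75 ± 1.18 (edgeR adjusted p = 0.0548), of which the 2 high samples of day 5 carried the most. Those were also the samples with most leukocyte marker reads, whose part in the result was not tested. CCR2 (ENSCAFG00000013786) went from 0.489, 1.2 and 5.09 CPM to 0.116, 0.405 and 0.706 CPM and fell by 2.32 ± 0.63 (edgeR adjusted p = 0.0711). CXCR4 had 14.2, 21.5 and 51.6 CPM early and 40.8, 61.1 and 128 CPM later, and rose by 1.42 ± 0.37 (edgeR adjusted p = 0.0637). With 1 sample left out, CCL13 and CXCR4 passed in 8 of 13 fits and CCR2 in 7.

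The last 3 genes called were the receptor chains CSF2RB, shared by IL3, IL5 and GM-CSF, and IL17RA, and the immune regulator TNFAIP8L2. They fell by 1.47 ± 0.38, 1.14 ± 0.30 and 1.85 ± 0.54 (edgeR adjusted p = 0.0620, 0.0644 and 0.0896). The median of CSF2RB was 17.4 CPM early and 7.66 CPM later, that of IL17RA 133 and 65.7 CPM, and that of TNFAIP8L2 1.59 and 0.502 CPM. All 3 overlapped between stages, and they passed in 7, 6 and 3 of the 13 fits with 1 sample left out.

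Of the 47 genes, 36 (76.6%) had the same direction in treated dogs as in the controls that chose them, against 3020 of 3460 genes of the whole list (87.3%). Among genes on the time list alone it was 29 of 30 (96.7%), against 93.6% of the 2626 such genes, a set that leaves out genes the treatment lists admitted. The 8 genes listed as higher all kept a positive log2 fold change, as did 28 of 39 listed as lower a negative one. By role, all 6 chemokine receptors, all 6 TNF receptors and all 6 other ligands had the list's direction, as did 10 of 13 interleukin and CSF receptors. Of the 10 chemokine ligands 4 did, and 8 had a positive log2 fold change, with a median of 0.84 where it had been -1.86 in controls. Without treated replicate 3 of day 20, 6 of the 10 were positive. The 6 that went against the time list are all on the day 20 list as higher in treated dogs, so the samples that chose them enter this value. Whether the change with time differed between control and treated dogs was not tested, since the controls chose the genes.

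**Figure D3:**
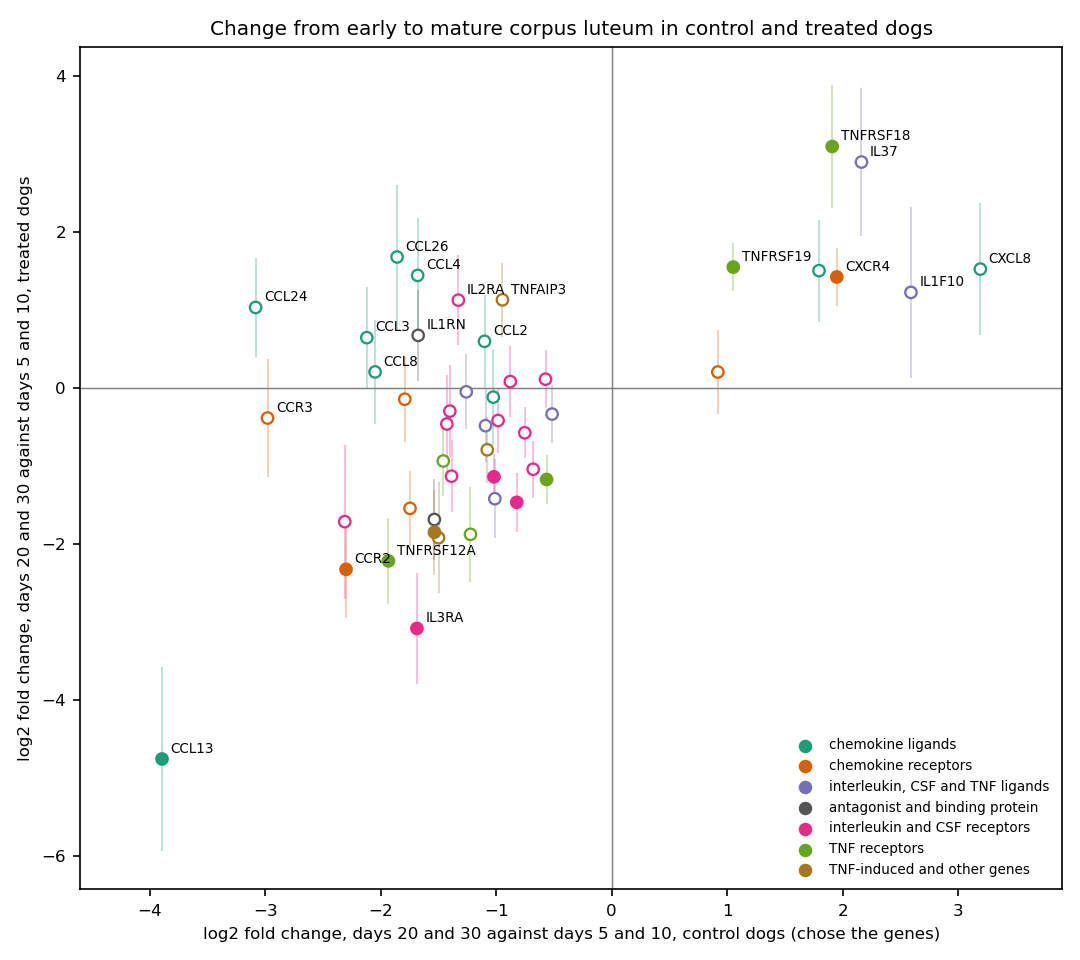
Log2 fold change from days 5 and 10 to days 20 and 30 in treated dogs (vertical axis, with SE bars) against that in control dogs (horizontal axis) for the 47 time list genes that passed the filter in treated dogs, coloured by role and filled where both thresholds were passed in treated dogs. CCL26, CCL4, CCL24, CCL3, CCL8 and CCL2 lie at upper left, negative in controls and positive in treated dogs, and CCL13 at lower left.

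These ligands were CCL2, CCL3, CCL4, CCL8, CCL24 and CCL26, with log2 fold changes in treated dogs of 0.60 ± 0.60, 0.64 ± 0.65, 1.44 ± 0.73, 0.20 ± 0.67, 1.03 ± 0.64 and 1.68 ± 0.93, none past the thresholds. With day 30 alone as the mature stage, 4 of the 10 chemokine ligands had a positive log2 fold change and the median was -0.16, whereas in controls 2 of 11 did, with a median of -1.98. IL1RN, IL2RA and TNFAIP3, on the day 20 list too, had 0.67 ± 0.58, 1.12 ± 0.57 and 1.13 ± 0.48, none past the thresholds.

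Within each stage, no gene of the time list passed both thresholds in treated dogs. Between days 5 and 10, 0 of 47 did, as did 0% of the 13613 genes tested, and 7 of the 47 had an unadjusted P under 0.05, where 4.44% of all genes did. DESeq2 called 1 of them, CCL13, where it called 0.325% of all genes. The 3 genes with the smallest P were CCL13, with -4.66 ± 1.32, CCL5 with 2.28 ± 0.75 and IL18BP with -1.67 ± 0.60 (edgeR adjusted p = 1 for each). CCL5 had 2.57, 1.64, 2.44 and 0.285 CPM on day 5 and 5.44, 4.10 and 14.8 CPM on day 10, so that all 3 dogs of day 10 lay above all 4 of day 5. IL18BP had 15.5, 7.70, 5.77 and 19.1 CPM on day 5 and 4.40, 4.94 and 1.77 CPM on day 10, and did not overlap either. The 14.8 CPM of CCL5 came from treated replicate 5 of day 10. That sample had 42.9 CPM of GZMB, a marker of cytotoxic cells, against 3.30 and 1.99 CPM in replicates 1 and 4. The part of such cells in the value of CCL5 was not tested.

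Between days 20 and 30, 0 of 45 genes passed, as did 0% of the 13692 genes tested, and 10 had an unadjusted P under 0.05, where 10.8% of all genes did. DESeq2 called 4. Among the genes on the time list alone, 4 of 29 had an unadjusted P under 0.05, led by IL6R, the IL6 receptor, with -1.14 ± 0.44 (edgeR adjusted p = 0.436), IL37 with 2.90 ± 1.18 and CSF2RA with -1.92 ± 0.79 (edgeR adjusted p = 0.450 for both). IL6R had 7.15, 11.9 and 11 CPM on day 20 and 5.65, 4.59 and 3.01 CPM on day 30, with no overlap. For genes that day 20 chose as higher in treated dogs the values are a description, and TNFSF12, CCL26 and IL1RN had -1.57 ± 0.42, -2.59 ± 0.70 and -2.36 ± 0.69. TNFSF12 had 17.3, 14.2 and 9.06 CPM on day 20 and 4.08, 5.29 and 3.82 CPM on day 30, and none of these 3 genes overlapped between the days. Of the 9 chemokine ligands tested here 7 had a negative log2 fold change, with a median of -1.77.

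Treatment on day 20 chose 23 of the genes, whose values are a description. All 23 kept the list's direction in the present fit, 19 higher and 4 lower in treated dogs, with a median log2 fold change of 2.18 for the 19, where it was 1.81 over all 1143 genes tested of the higher list. None of the 23 passed both of edgeR's thresholds, where 0.102% of the 13726 genes tested did, while 16 had an unadjusted P under 0.05, where 17% of all genes did, and DESeq2 called 14, where it called 10.8% of all genes. Without treated replicate 2 edgeR called 16 of the 23 and 7.40% of all genes, and without treated replicate 3 or 4 it called 0 of the 23 and 1 and 0 of all genes. Since this contrast chose the genes, nothing is read from these shares. The smallest changes among the 23 genes were those of IL13RA1 (0.53) and TNFRSF19 (0.64).

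The 8 chemokine ligands on this list were all higher in treated dogs, by 1.42 to 4.18 on the log2 scale (median 2.86). CCL4 had 1.68, 3.78 and 1.58 CPM in controls 1, 2 and 3 and 5.97, 68.7 and 48.2 CPM in treated replicates 2, 3 and 4. CCL3 had 0.721, 1.52 and 0.474 CPM in controls and 1.72, 26.4 and 17.6 CPM in treated dogs. In both, all treated dogs exceeded all controls, replicate 2 by little and replicates 3 and 4 by far.

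CCL8 had 4.27, 8.89 and 1.42 CPM in controls and 5.05, 52.7 and 40.9 CPM in treated dogs, where replicate 2 lay within the controls. CCL26 had 1.74, 1.71 and 4.37 CPM in controls and 10.2, 25.2 and 21.6 CPM in treated dogs, with no overlap. CCL24 had 5.23, 0.975 and 0.895 CPM in controls and 62.3, 9.68 and 6.68 CPM in treated dogs. Here replicate 2 was the high one, and the log2 fold change of 3.48 was 1.83 without it.

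CCL2 was higher in replicates 3 and 4 only, with 39.0, 44.4 and 29.2 CPM in controls and 42.7, 132 and 116 CPM in treated dogs. CCL5 had 0.961, 1.16 and 1.11 CPM in controls and 6.13, 6.17 and 3.44 CPM in treated dogs, which made it the most even of the 8 across treated replicates. CXCL10, the interferon-induced ligand of CXCR3, had 2.70, 2.74 and 0.0527 CPM in controls and 3.17, 15.2 and 1.97 CPM in treated dogs, so that its log2 fold change of 1.95 ± 1.17 came from replicate 3.

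**Figure D4:**
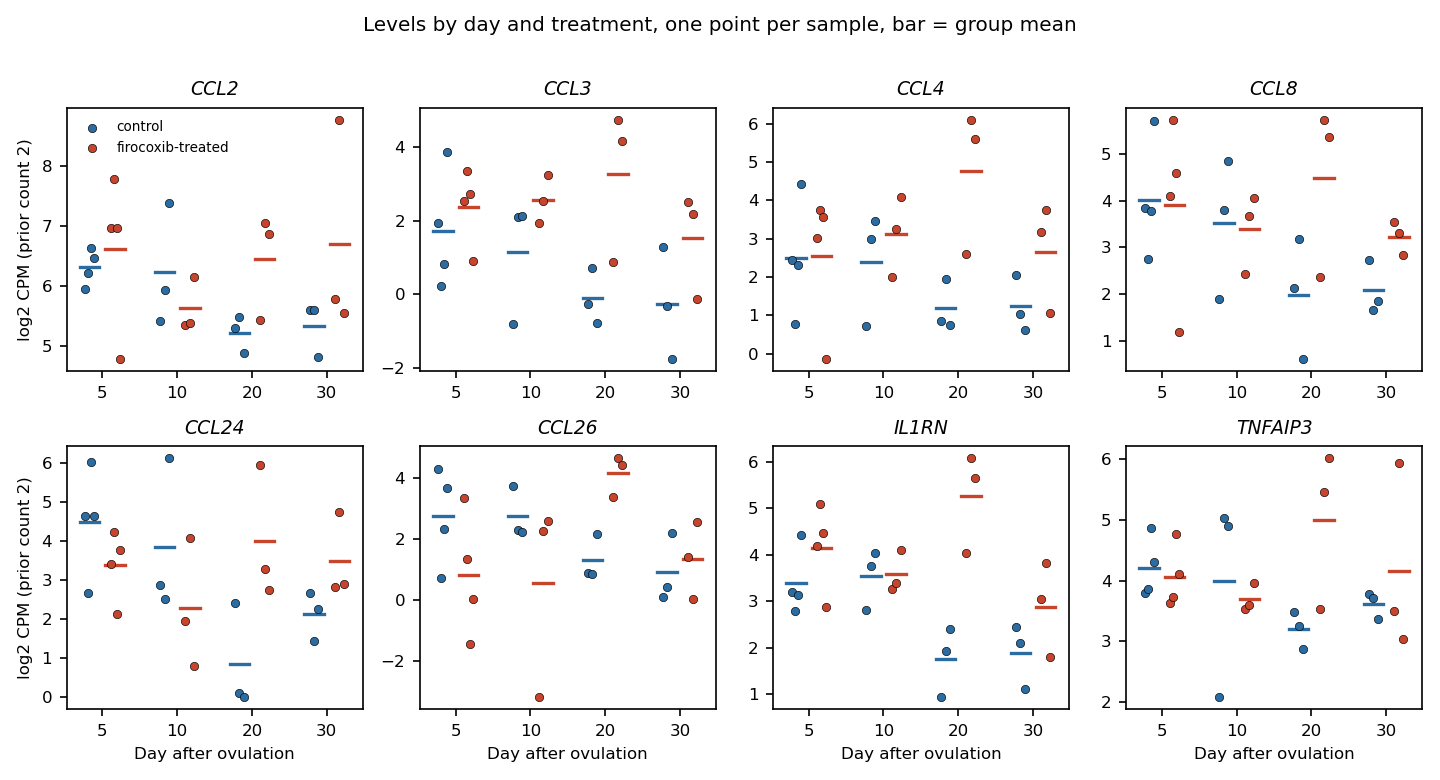
Log2 CPM of CCL2, CCL3, CCL4, CCL8, CCL24, CCL26, IL1RN and TNFAIP3 by day after ovulation, 1 point per sample, with a bar at the group mean, blue for control and red for treated dogs. Treated and control dogs are farthest apart on day 20 in all panels but CCL2, whose group means differ by 1.23 on day 20 and 1.36 on day 30. Treated replicate 2 of day 20 lies near the controls except for CCL24, CCL26 and IL1RN.

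In the IL1 family, an antagonist and an agonist were on the day 20 list as higher and IL33 as lower. IL1RN had 1.80, 3.72 and 5.16 CPM in controls and 16.4, 67.6 and 50.0 CPM in treated dogs of day 20, with a log2 fold change of 3.69 ± 0.67 and no overlap. IL1A (ENSCAFG00000007245), an agonist of the IL1 receptor, had 10.5, 12.1 and 14.4 CPM in controls and 5.00, 61.9 and 32.6 CPM in treated dogs, where replicate 2 was below all controls. IL33 (ENSCAFG00000030105), an alarmin of stromal and endothelial cells, was lower, with 49.6, 53.7 and 36.8 CPM in controls and 1.88, 20.4 and 21.2 CPM in treated dogs.

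Of the interleukin receptors on the day 20 list, IL2RA (CD25, on activated T cells) had 1.56, 2.38 and 1.26 CPM in controls and 1.02, 14.8 and 9.92 CPM in treated dogs. IL10RA, the ligand-binding chain of the IL10 receptor, had 3.54, 3.11 and 6.53 CPM in controls and 21.6, 11.3 and 16.7 CPM in treated dogs, and IL15RA 1.2, 0.914 and 1.11 CPM and 2.47, 4.58 and 4.91 CPM, neither with overlap. IL17RD had 0.901, 0.975 and 0.948 CPM in controls and 1.40, 8.38 and 3.39 CPM in treated dogs. IL3RA was lower, with 1.80, 0.914 and 2.05 CPM in controls and 0.699, 0 and 0.456 CPM in treated dogs.

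Of the TNF-related genes, TNFAIP3 (ENSCAFG00000000267) had 11.1, 9.38 and 7.16 CPM in controls and 11.5, 44.0 and 64.9 CPM in treated dogs, with replicate 2 just above the highest control. TNFSF12 and TNFAIP8L3, a phospholipid transfer protein, were higher without overlap (log2 fold changes of 1.80 ± 0.45 and 1.33 ± 0.49). TNFAIP8 and the death receptor TNFRSF25 were lower without overlap (-1.96 ± 0.43 and -1.24 ± 0.62). TNFAIP8 had 28.7, 13.5 and 17.5 CPM in controls and 4.36, 5.30 and 5.21 CPM in treated dogs.

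Replicates of the treated group differed in the genes that day 20 chose. Of the 19 genes listed as higher, treated replicate 3 had the highest treated value in 13 and replicate 2 the lowest in 13. Replicate 3 exceeded all 3 controls in 19 of 19 genes, replicate 4 in 18 and replicate 2 in 13, and in 12 genes all treated dogs exceeded all controls. These samples chose the 19 genes, and the same counts over all genes were not made, so the counts are a description. Macrophage markers gave another order: the 3 found of 11 (CD68, AIF1 and C1QA, with most reads on C1QA) summed to 24.6, 23.0 and 33.3 CPM in controls and to 127, 39.9 and 43.6 CPM in treated replicates 2, 3 and 4, so that the sum was highest in replicate 2. General leukocyte markers summed to 79.8, 72.2 and 114 CPM in controls and 139, 137 and 96.7 CPM in treated dogs. Of 4 mast cell markers 3 were higher in treated dogs, with a median log2 fold change of 2.56 over the 4 and none past the thresholds. Among treated dogs CPA3, MS4A2 and FCER1A were highest in replicate 3 (9.49, 3.13 and 2.02 CPM), whereas KIT was lowest there (18.5 CPM). Of the 5 oocyte markers 4 passed both thresholds on day 20, by 3.57 to 10.53 on the log2 scale, where 0.102% of all genes passed. Markers have a symbol only through the study's lists, and the day 20 list used these samples, so this count is a description. In these libraries the luteal markers, led by FDX1, summed to 780, 284 and 897 CPM against 1680, 2030 and 1350 CPM in controls. The sum does not stand for each luteal marker, since 1 of the 3 had a positive log2 fold change on day 20. The part of these markers in the values of the cytokine genes was not tested.

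Treatment on days 5, 10 and 30 was tested for the genes that those days did not choose. On day 5, edgeR called 0 of 27 genes, as it did 0% of the 13651 genes tested. DESeq2 called 0 of the 27, where it called 0.736% of all genes. Of the 10 genes on a treatment list alone, 0 had an unadjusted P under 0.05, where 11.8% of all genes did. The smallest P among them were those of TNFAIP8L3, TNFAIP1 and IL1R1, with 1.41 ± 0.66, 0.53 ± 0.29 and -0.76 ± 0.45 (edgeR adjusted p = 0.412, 0.421 and 0.426). Of the 17 also on the time list, which used the day 5 controls, 1 had such a P, TNFSF12. It had 9.38, 5.22, 8.41 and 8.69 CPM in controls and 24.7, 18.3, 17.8 and 7.13 CPM in treated dogs, with replicates 1, 2 and 4 above all controls and replicate 5 among them (log2 fold change 1.09 ± 0.40). Of the 23 genes of the day 20 list, 13 (56.5%) had that list's direction on day 5, against 70.0% of the whole list, and of the 8 chemokine ligands 4 did. The last count was 1 of 8 without control replicate 3, control replicate 4 or treated replicate 2 and 2 of 8 without control replicate 1, and the 27 genes, of which 16 had a positive log2 fold change, gave 8 without treated replicate 2 and 10 without control replicate 3. Of the 23 genes of the day 20 list, 16 are also on the time list, as are all of the ligands but CXCL10. That list used the day 5 controls, so these counts of direction are a description.

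On day 10, 0 of 27 genes passed, as did 0% of the 13416 genes tested, with 0 at an unadjusted P under 0.05, where 0.902% of all genes were, and DESeq2 called 0. The smallest P were those of CXCL10, CCL5 and IL1R1. CXCL10 and IL1R1 had -1.28 ± 0.67 and -0.60 ± 0.34 (edgeR adjusted p = 1 for each), and CCL5, whose time list used the day 10 controls, had 1.06 ± 0.56. CXCL10 had 2.63, 1.41 and 1.94 CPM in controls and 0.366, 1.41 and 0.651 CPM in treated dogs. The day 20 list's direction was found in 11 of 23 genes (47.8%), against 33.7% of the whole list, and in 3 of 8 chemokine ligands, or 5 of 8 without control replicate 4 and 2 of 8 without treated replicate 5. These counts too are a description, since the time list, which holds 16 of the 23 genes, used the day 10 controls.

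**Figure D5:**
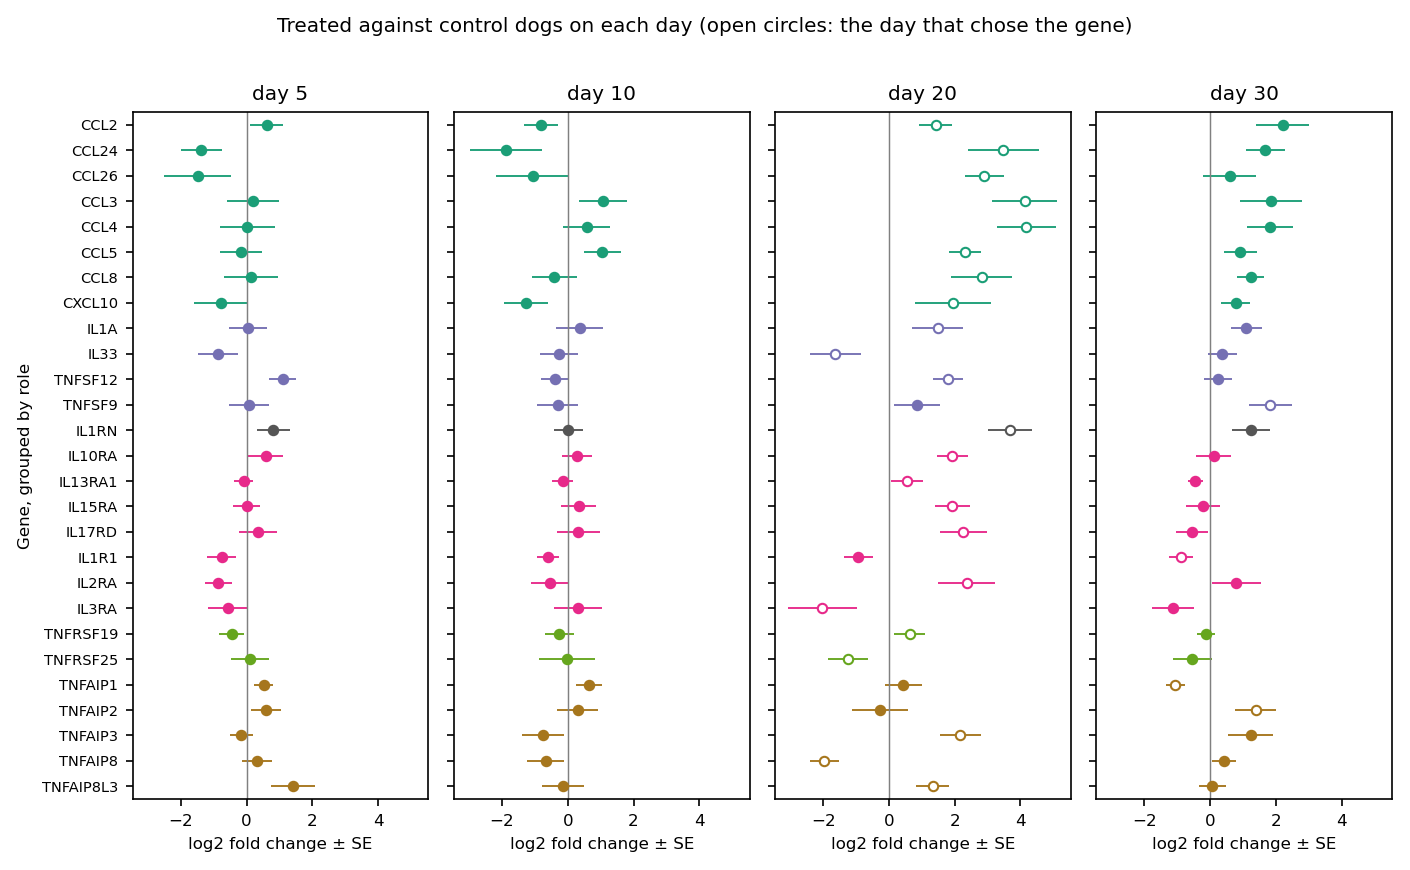
Log2 fold change with SE of treated against control dogs on days 5, 10, 20 and 30 for the 27 genes of the day 20 and day 30 lists, coloured by role, with open circles where that day chose the gene. The chemokine ligands in the top 8 rows scatter around 0 on days 5 and 10 and are positive on days 20 and 30. All of these ligands but CXCL10 are also on the time list, which used the controls of all 4 days.

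On day 30, 0 of the 23 genes chosen on day 20 passed both thresholds, as did 0% of the 13196 genes tested. DESeq2 called 0 of these 23, where it called 0.881% of all genes. An unadjusted P under 0.05 was found for 5 of them (21.7% of 23), where 8.14% of all genes had one, all 5 higher in treated dogs: CCL8, CCL24, CCL2, CCL4 and IL1A. All of these but IL1A are also on the time list as lower in mature controls, which used the same 3 day 30 controls, so their values are a description and their share is not independent of the choice. Of the 7 genes on the day 20 list alone, 1 had such a P, IL1A, with 10.7, 14.3 and 10.1 CPM in controls and 10.8, 41.6 and 17.8 CPM in treated dogs (1.1 ± 0.47, edgeR adjusted p = 0.613). The day 20 list's direction was found in 17 of 23 (73.9%), against 64.3% of the whole list. This count and those of the ligands below are a description, since 16 of the 23 genes are also on the time list. All 8 chemokine ligands had a positive log2 fold change, from 0.59 (CCL26) to 2.20 (CCL2) with a median of 1.46, and the median of all genes of the higher list was 0.38. Without treated replicate 4 the median of the 8 was 0.92, and without replicate 5 only 7 were positive. Of the 8, CXCL10 alone is not on the time list. Of the 6 interleukin receptors 2 were positive, with a median of -0.33.

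CCL8 had 6.54, 3.07 and 3.48 CPM in controls 2, 3 and 4 of day 30 and 11.6, 9.74 and 7.07 CPM in treated replicates 2, 4 and 5, with no overlap (log2 fold change 1.23 ± 0.41). CCL24 had 6.27, 2.63 and 4.73 CPM in controls and 6.93, 26.6 and 7.36 CPM in treated dogs, with no overlap but with replicate 4 far above the others (1.68 ± 0.60). Without that replicate the log2 fold change was 0.69. CCL2 had 48.4, 48.2 and 27.9 CPM in controls and 54.8, 435 and 46.4 CPM in treated dogs (2.20 ± 0.82), and its log2 fold change was 0.32 without replicate 4.

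Treated replicate 4 of day 30 was high for other inducible genes too. It had 61 CPM of TNFAIP3, against 11.2 and 8.05 CPM in the other treated dogs and 10.1 to 13.6 CPM in controls, and 41.6 CPM of IL1A against 10.8 and 17.8 CPM. Its oocyte markers summed to 5.93 CPM, against 128 and 74.0 CPM in replicates 2 and 5. CCL4 had 4.02, 1.94 and 1.43 CPM in controls and 8.86, 13.5 and 1.97 CPM in treated dogs, and replicate 5 lay within the controls.

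The 4 genes chosen on day 30 were TNFSF9 (ENSCAFG00000030400) and TNFAIP2, higher in treated dogs, and IL1R1 (ENSCAFG00000002147) and TNFAIP1, lower. On that day TNFSF9, a costimulatory ligand of T cells, had 0.911, 0.313 and 0.311 CPM in controls and 1.22, 2.40 and 1.56 CPM in treated dogs, and TNFAIP2 had 5.41, 2.50 and 1.12 CPM and 6.35, 11.3 and 4.46 CPM. IL1R1, the signalling receptor of IL1A, had 34.5, 77.0 and 103 CPM in controls and 37.7, 39.9 and 29.6 CPM in treated dogs. TNFAIP1 had 39.7, 40.7 and 30.9 CPM and 22.1, 12.5 and 14.7 CPM, with no overlap. These values are a description.

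On day 20, which did not choose them, none of the 4 passed both thresholds or had an unadjusted P under 0.05. DESeq2 called 0 of them, where it called 10.8% of all genes. The smallest P was that of IL1R1, with 72, 55.5 and 45.7 CPM in controls and 17.3, 26.8 and 44.1 CPM in treated dogs, all below all controls (log2 fold change -0.93 ± 0.45, edgeR adjusted p = 0.332). It was negative on all 4 days, with -0.76 ± 0.45 on day 5 and -0.60 ± 0.34 on day 10. TNFAIP1 followed with 0.43 ± 0.57 (edgeR adjusted p = 0.690), and TNFSF9, whose time list used the day 20 controls, had 0.85 ± 0.70. TNFAIP1 was thus positive on day 20 and negative on day 30, but without treated replicate 2 of day 20 its log2 fold change on that day was -0.08.

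Among signalling genes downstream of these receptors, only those on the study's lists have a symbol, so their counts are no independent evidence of direction. Of 18 JAK-STAT genes 3 were found (SOCS3, PIAS1 and PTPN6), and all 3 passed in control dogs with time, SOCS3 and PTPN6 lower and PIAS1 higher, where 20.5% of all genes passed. In treated dogs, where 4.65% of all genes passed, 1 of 3 did, PTPN6, a phosphatase that dampens cytokine receptors (-1.36 ± 0.39). SOCS3, the feedback inhibitor of gp130 signalling, had 0.541, 2.25 and 5.00 CPM in controls of day 20 and 9.46, 27.6 and 39.3 CPM in treated dogs of that day, and was on the day 20 list. Of 28 genes of NF-kappaB and its adaptors 10 were found, of which 5 passed with time in controls (2 higher, 3 lower) and 1 in treated dogs, TNIP3, an inhibitor of NF-kappaB activation (2.26 ± 0.53). None of either list passed on any day of treatment, including day 20, where 8 of the 10 NF-kappaB genes had a positive log2 fold change with a median of 0.72.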

How the data were processed

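RNA of 26 canine CL was sequenced from poly-A selected TruSeq libraries, a kit that does not mark strand, so genes that overlap on opposite strands cannot be told apart. The deposited values are whole-number read counts per Ensembl gene, which the authors made from single-end reads with STAR on CanFam3.1 and featureCounts (versions and multi-mapping settings not given in the sources used here). Totals of 12831896 to 22658950 reads make genes near the filter of 10 reads imprecise. The 4 samples that the authors removed were not analysed here, and p-values measure the spread between the dogs kept.

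Symbols, and which list a gene stood on, came from the study's supplementary lists, whose fold changes and p-values were not used. The genes and lists were chosen with earlier results of these data known. Analyses used R 4.3.3, edgeR 4.0.16 (TMM factors, a group mean of 10 or more reads in any group compared, quasi-likelihood tests, SE taken as the log2 fold change divided by the root of F), and DESeq2 1.42.0 as an alternative. Log2 CPM used a prior count of 2. Called genes had P under 0.01 and FDR under 0.1. The tests were tried on simulated data. Alternatives were DESeq2, RLE factors, no filter, filterByExpr, a fit of all 26 samples, a replicate block and leaving out each sample. Omitting day 20, and counting genes apart where another of their lists used samples of a test, were added after the data were examined.

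Genes named singly were those on more than 1 kind of list, those higher with time, those on a treatment list alone, those past both thresholds or else the 3 with the smallest P in each test, and the 4 largest changes with time in each role. Treated replicate values beyond these, and CCL4 and IL1A on day 30, were named after they were seen. Of the genes, 1 is counted but not reported singly here. No list member was found for neutrophil and blood markers. Of single markers found, CD3G (T cells), GZMB (cytotoxic cells), CD22 (B cells), ALOX15 (eosinophils) and CD86 (dendritic cells), of 4 mast cell and 5 endothelial markers, none passed on any day of treatment. Of all genes, 0% passed on days 5, 10 and 30 and 0.102% on day 20, so little can be read from this. CD22 alone passed with time in treated dogs, where 4.65% of all genes did.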

Additional observations from a re-analysis of the deposited data

Results flagged for a closer look

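Among the 59 genes in the day 5 groups (4 samples each) and the early and mature groups of 6 or 7 samples, 23 values stood apart from the rest of their group on the log2 scale by Dixon's criterion, in 354 groups examined (6.5%), where chance gives about 1 in 20. In day 5 controls these were CCL5 (0.889 CPM), IL34 (29.2 CPM) and TNFAIP8L3 (3.89 CPM) in replicate 3 and IL13RA1 (217 CPM) in replicate 5, and in day 5 treated dogs CCR2 in replicate 2 (5.09 CPM). In early controls they were CCL13 (0.155 CPM), IL7R (0 CPM) and TNFAIP3 (4.11 CPM) in replicate 2 of day 10 and TNFSF12 (5.22 CPM) in replicate 3 of day 5. In mature controls they were CCL5 (2.46 CPM) in replicate 2 and CXCR4 (171 CPM) in replicate 4 of day 30, and CSF1 (6.64 CPM) in replicate 2 and CXCL10 (0.0527 CPM) in replicate 3 of day 20.

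In early treated dogs CX3CR1 stood apart in replicate 5 of day 5 (0.969 CPM) and IL4I1 in replicate 4 of day 10 (0.513 CPM). In mature treated dogs CXCL10 (15.2 CPM), CXCL14 (0.241 CPM), IL1F10 (0.0482 CPM) and IL3RA (0 CPM) did so in replicate 3 of day 20, the sample with 38.5 CPM of FDX1. IL33 (1.88 CPM) and TNFAIP6 (0.860 CPM) did so in replicate 2 of day 20, CX3CR1 (2.61 CPM) in replicate 4 and IL2RG (0.232 CPM) in replicate 5 of day 30.

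IL17RD, a regulator of receptor signalling, differed between days: all 3 treated dogs exceeded all 3 controls on day 20, with a ratio of mean CPM of 4.66, and lay below them on day 30, with a ratio of 0.625. This difference was not tested.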

How the results depend on the processing

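The values below are counts of cytokine genes past both thresholds. For the step from early to mature in treated dogs (11 of 47), DESeq2 gave 19 and a fit of all 26 samples 20, where calls over all genes went from 639 to 1620 and 1705, and leaving out 1 sample gave 1 to 17. For that step in controls (39 of 49), DESeq2 gave 47 and the fit of all samples 26. Day 30 alone as the mature stage, chosen after the data were examined, gave 21. Calls over all genes went from 2774 to 3513, 1754 and 1721 in that order. For treated dogs between days 5 and 10 (0), DESeq2 gave 1, where calls over all genes went from 0 to 44. Between days 20 and 30 (0), DESeq2 gave 4 and the fit of all samples 3, where calls over all genes went from 0 to 562 and 318. For the 23 genes that day 20 chose (0 with edgeR), DESeq2 gave 14, RLE factors 1, no filter 1, filterByExpr 2 and the fit of all samples 13, where calls over all genes went from 14 to 1479, 95, 109, 129 and 1559, and leaving out 1 sample gave 0 to 16. For the 4 genes that day 30 chose (0), DESeq2 gave 1, where calls over all genes went from 0 to 116. Tests of treatment on days that did not choose the genes gave 0 under every alternative run. RLE factors moved the median of all genes by less than 0.1 on the log2 scale in every comparison.

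With the replicate number as a block (replicate block), 5 of 47 genes passed with time in treated dogs and 23 of 49 in controls, where calls over all genes went from 639 to 383 and from 2774 to 1806, and 0 passed in each test of treatment it could be fitted to, since day 10 groups share 1 number. The numbers belong to different dogs. Correlations of same-numbered samples' deviations averaged 0.366 for treated days 5 and 10 (lowest 0.0654) and 0.153 on day 5, with 4 of 6 and 2 of 6 samples closest to their own number, and lay between -0.389 and 0.0257 elsewhere, so the numbers were not taken as pairs. Under the block 4 of 10 chemokine ligands were positive with time in treated dogs, with a median of -0.04 (8 and 0.84 without it), and on day 5 of treatment 1 of 8 ligands and 8 of 27 genes (4 and 16 without it). Between treated days 20 and 30, 8 of 9 ligands were negative under the block, with a median of -0.39 (7 and -1.77 without it). TNFAIP1 on day 20 (0.43) changed sign, to -0.08 under the block, and leaving out 1 sample gave -0.081 (without treated replicate 2) to 0.85 (without control replicate 3). The cause was not tested.

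Groups of 3 or 4 dogs and counts near 3 reads (0.126 to 0.232 CPM) limit what could be detected, as for CCL22, which had 4 reads in all mature controls together.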
